A study of Homo sapiens with 6 samples.

Results

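The 34 genes described here encode the enzymes that make cholesterol and fatty acids, with the proteins that control them, and were chosen by gene symbol. All 34 were among the 17646 genes measured in MDA-MB-231 cells, an established human line of triple negative breast cancer. The depleted cells received an siRNA against USP32, a ubiquitin-specific protease, and are called siUSP32. The siControl cells received a control siRNA, and both were harvested 48 h after transfection, with 3 libraries in each group. Sequences of the siRNAs, and whether a group's libraries stem from separate cultures, are not given in the sources used. The p-values therefore reflect the spread of these libraries only, which may be technical.

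Cholesterol is built in the mevalonate pathway, in which mostly soluble enzymes turn acetyl-CoA into isoprenoid units, and mostly enzymes of the endoplasmic reticulum membrane join and finish them as sterols. Fatty acids are made by soluble enzymes and are then lengthened, desaturated and activated by membrane enzymes. SREBP transcription factors switch on both pathways. They are made as membrane precursors that SCAP escorts to the Golgi for cleavage, and INSIG proteins hold SCAP back when sterols are plentiful. The genes were accordingly read in 3 classes, namely 11 cytosolic proteins, 18 membrane enzymes and 5 regulators of the SREBP system. The classes follow textbook knowledge of the proteins and not a measurement in these cells.

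The deposited values are FPKM, which count fragments per transcript length and per library total, so levels can be compared between genes within the limits of that length scaling. USP32 itself was at 2.0, 1.88 and 2.01 FPKM in siUSP32 libraries, against 7.5, 7.48 and 8.32 FPKM in siControl libraries. The FPKM of all listed genes summed to 855573 to 948641 in siUSP32 libraries and 686376 to 694831 in siControl libraries, so the groups differ in composition and every difference below depends on the scaling. VIM, a mesenchymal marker of this line, was at 1628 to 1715 FPKM in siUSP32 and 1077 to 1098 FPKM in siControl libraries. The surface marker CD44 was at 131 to 138 FPKM in siUSP32 and 423 to 426 FPKM in siControl libraries, and the epithelial marker EPCAM at 3.89 to 4.85 FPKM in siUSP32 and 9.61 to 12.1 FPKM in siControl libraries. The estrogen receptor gene ESR1 and the epithelial cadherin gene CDH1 stayed under 1 FPKM in all 6. Of 4 markers of leukocytes, endothelium, hepatocytes and fibroblasts, PTPRC and ALB were at or near 0. PECAM1 was at 0.39 to 0.42 FPKM in siUSP32 and 0.96 to 1.1 FPKM in siControl libraries. COL1A1 was at 0.75 to 0.89 FPKM in siUSP32 and 1.52 to 2.08 FPKM in siControl libraries. The 4 together summed to 1.17 to 1.3 FPKM in siUSP32 and 2.48 to 3.17 FPKM in siControl libraries. In such bulk samples, fewer cells of a type and less RNA per cell cannot be told apart, and the part of these markers in the results was not tested.

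Membrane enzymes and SREBP regulators were mostly lower after USP32 depletion, while the cytosolic enzymes of the mevalonate pathway were mostly higher. Differences are siUSP32 minus siControl on the log2(FPKM + 1) scale, on which changes at low values look smaller, and were tested with limma over the 12003 genes with a mean of at least 1 FPKM. All 34 genes passed that filter. Of these, 11 rose and 22 fell at a Benjamini-Hochberg adjusted p under 0.05, while 33.3% of all tested genes rose and 41.3% fell, 74.6% in all. Of the 18 membrane enzymes 14 fell and 4 rose, and of the 5 regulators 4 fell and 1 rose. Of the 11 cytosolic proteins 6 rose, 4 fell and STARD4 did not pass the test. With a correction for transcript length described below, 9 of them rose and 1 fell, beside 44.7% higher and 28.5% lower over all genes. A fall of at least 1 on the log2 scale was seen for 7 membrane enzymes, 2 regulators and 0 cytosolic proteins, against 10.8% of all genes, and a rise of that size for 0 of the 34, against 1.95%. The libraries of the groups did not overlap for 33 of the 34 genes, but the same held for 77.8% of all genes.

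**Figure D1:**
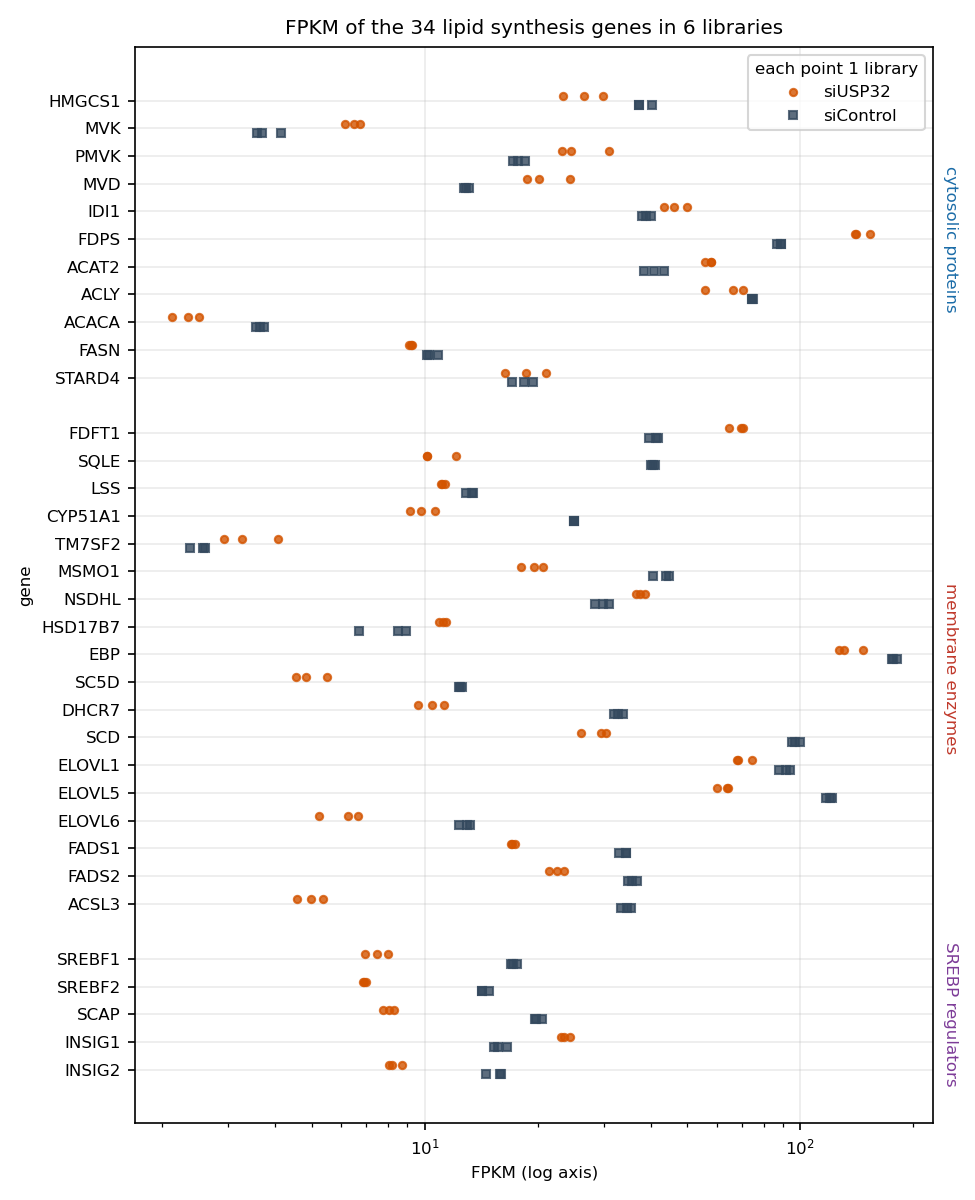
FPKM of each of the 34 genes (log axis) in the 3 siUSP32 libraries (circles) and the 3 siControl libraries (squares), by class from top to bottom. STARD4 is the gene whose groups overlap, and the widest gap is that of ACSL3, at 4.56 to 5.35 FPKM in siUSP32 and 33.3 to 35.4 FPKM in siControl libraries.

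The median of the cytosolic proteins lay above those of the other 2 classes in every siUSP32 library, although single genes of the classes overlap. The median deviation from the siControl mean was -0.91, -0.97 and -0.87 for the membrane enzymes in the 3 siUSP32 libraries, and 0.00 to 0.01 in the siControl libraries. It was -0.95, -0.97 and -0.97 for the regulators in siUSP32 libraries, and -0.03 to 0.03 in siControl libraries. For the cytosolic proteins it was 0.24, 0.15 and 0.35 in siUSP32 libraries, and -0.03 to 0.03 in siControl libraries. The median over all tested genes moved little, by -0.10 to -0.03 in siUSP32 libraries. The median of the membrane enzymes minus that of the cytosolic proteins was -1.22 to -1.11 on the log2 scale in siUSP32 libraries and -0.02 to 0.03 in siControl libraries. Summed over each class, the membrane enzymes reached 524 to 544 FPKM in siUSP32 and 848 to 854 FPKM in siControl libraries. The cytosolic proteins summed to 416 to 431 FPKM in siUSP32 and 341 to 355 FPKM in siControl libraries. Mean FPKM over all tested genes summed to 891600 in siUSP32 and 687800 in siControl libraries. In proportion the cytosolic sum therefore rose less than that of all genes. Most of its rise came from FDPS, with means of 144.7 FPKM in siUSP32 and 88.33 FPKM in siControl libraries.

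**Figure D2:**
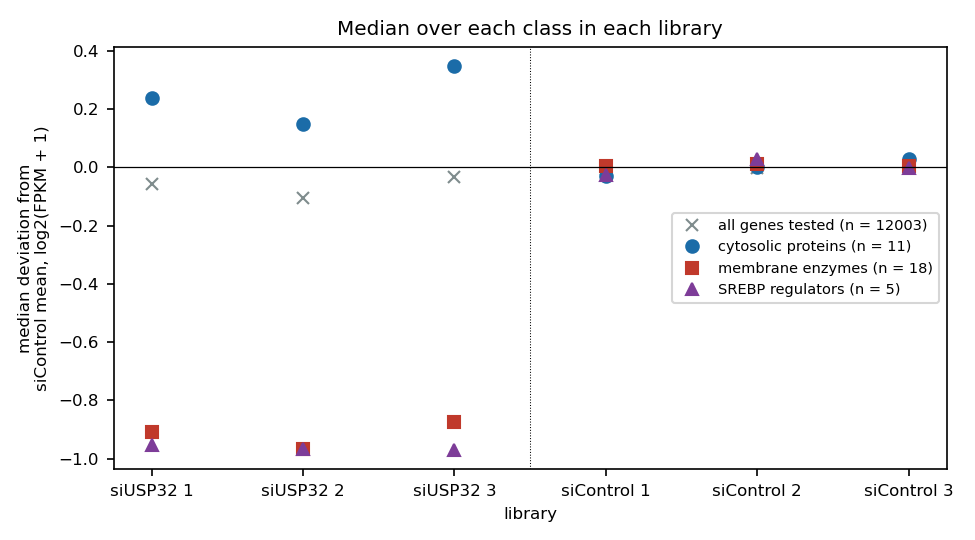
Median over the genes of each class of the deviation from the siControl mean, in log2(FPKM + 1), for each of the 6 libraries. Membrane enzymes and regulators lie between -0.97 and -0.87 in the siUSP32 libraries, the cytosolic proteins between 0.15 and 0.35, and all medians are near 0 in the siControl libraries.

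Scaling moved the level of all 3 classes, and the cytosolic proteins lay above the other 2 in each case. The class medians of the log2 difference were -0.93 for membrane enzymes, -0.96 for regulators and 0.25 for cytosolic proteins, beside -0.06 over all genes. With each library rescaled to the same sum (TPM), they were -1.301, -1.32 and -0.12, beside -0.39 over all genes, and 5 of the 34 rose and 23 fell (14.3% and 62.1% of all genes). After quantile normalization they were -0.81, -0.73 and 0.16, beside 0.10 over all genes, and 11 of the 34 rose and 19 fell (43.8% and 30% of all genes). The cytosolic median was therefore above that of all genes in each case, although its sign turned with TPM. Over all genes the differences also declined with transcript length. After a correction for length the medians were -0.56 for membrane enzymes, -0.73 for regulators and 0.45 for cytosolic proteins, beside 0.11 over all genes, and 13 of the 34 rose and 18 fell (44.7% and 28.5% of all genes).

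Among the cytosolic mevalonate enzymes, 6 of 7 rose, beside 33.3% of all tested genes. With TPM 3 of the 7 were called higher and 1 lower, beside 14.3% and 62.1% of all tested genes. ACAT2, which joins acetyl-CoA molecules at the start of the pathway, was at 55.9, 58.04 and 57.9 FPKM in siUSP32 libraries, against 38.5, 40.9 and 43.3 FPKM in siControl libraries. HMGCS1, the HMG-CoA synthase that acts next, was the exception, at 26.5, 23.3 and 29.9 FPKM in siUSP32 libraries, against 37.2, 37.1 and 40.2 FPKM in siControl libraries. It was 1.44-fold lower (log2 difference -0.51 ± 0.09, limma adjusted p = 4.97e-04). All 3 siUSP32 libraries lay below the siControl libraries. The values of the kinase genes MVK and PMVK, which phosphorylate mevalonate in turn, did not overlap between the groups. MVK was at 6.5, 6.72 and 6.13 FPKM in siUSP32 libraries, against 4.14, 3.58 and 3.68 FPKM in siControl libraries. MVK and PMVK were 1.697-fold and 1.47-fold higher, with log2 differences of 0.64 and 0.52. MVD, the decarboxylase that yields the isoprenoid unit, was at 20.2, 24.3 and 18.7 FPKM in siUSP32 libraries, against 12.9, 13.1 and 12.7 FPKM in siControl libraries (log2 difference 0.66 ± 0.09, limma adjusted p = 1.30e-04). IDI1, the isomerase of that unit, was only 1.19-fold higher, and its log2 difference of 0.25 was -0.12 with TPM, where it was not called.

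FDPS makes farnesyl diphosphate, the last soluble intermediate of the sterol branch. The gene (Entrez 2224, GRCh38 chromosome 1, bases 155308748 to 155320666, plus strand) was at 141, 154 and 140.2 FPKM in siUSP32 libraries, against 87.01, 89.1 and 88.9 FPKM in siControl libraries, and was 1.64-fold higher (log2 difference 0.70 ± 0.05, limma adjusted p = 2.32e-06). It had the highest level of the cytosolic genes, and every siUSP32 library lay above every siControl library. GENCODE 29 names 8 pseudogenes of FDPS, so reads may be shared and its value is uncertain. With TPM neither ACAT2 nor PMVK was called (log2 differences 0.12 and 0.17), nor was PMVK with the length correction (0.18).

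The cytosolic enzymes of fatty acid synthesis fell, 3 of 3, beside 41.3% of all tested genes. ACLY and FASN were only 1.16-fold and 1.14-fold lower, and ACACA was 1.57-fold lower. ACLY, which makes cytosolic acetyl-CoA from citrate, was at 66.3, 55.9 and 70.6 FPKM in siUSP32 libraries, against 74.8, 74.3 and 74.6 FPKM in siControl libraries (log2 difference -0.22 ± 0.08, limma adjusted p = 0.0314). ACACA, the acetyl-CoA carboxylase that commits carbon to fatty acids, was at 2.34, 2.12 and 2.5 FPKM in siUSP32 libraries, against 3.55, 3.65 and 3.74 FPKM in siControl libraries (log2 difference -0.49 ± 0.07, limma adjusted p = 2.16e-04). FASN, the fatty acid synthase, was at 9.18, 9.08 and 9.25 FPKM in siUSP32 libraries, against 10.2, 10.3 and 10.9 FPKM in siControl libraries (log2 difference -0.17 ± 0.06, limma adjusted p = 0.0252). The siUSP32 libraries lay below the siControl libraries for each of these genes, but by little for ACLY and FASN. These transcripts are long, 8565 bases for FASN and 9554 bases for ACACA, and all 3 differences turned positive and were called higher with the length correction, at 0.18, 0.15 and 0.45. After quantile normalization that of ACACA was -0.08 and that of FASN 0.09, and neither was called. Median-ratio scaling, or leaving out any 1 siControl library, ended the calls of ACLY and FASN. Having no filter ended that of ACLY, and leaving out siUSP32 library 1 or using the replicate number as a block ended that of FASN. STARD4, a soluble carrier of cholesterol between membranes, was at 18.7, 16.4 and 21.0 FPKM in siUSP32 libraries, against 17.1, 18.3 and 19.5 FPKM in siControl libraries, and these values overlap (log2 difference 0.02 ± 0.09, limma adjusted p = 0.826). With the length correction it was higher, at 0.45, and with TPM lower, at -0.33.

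**Figure D3:**
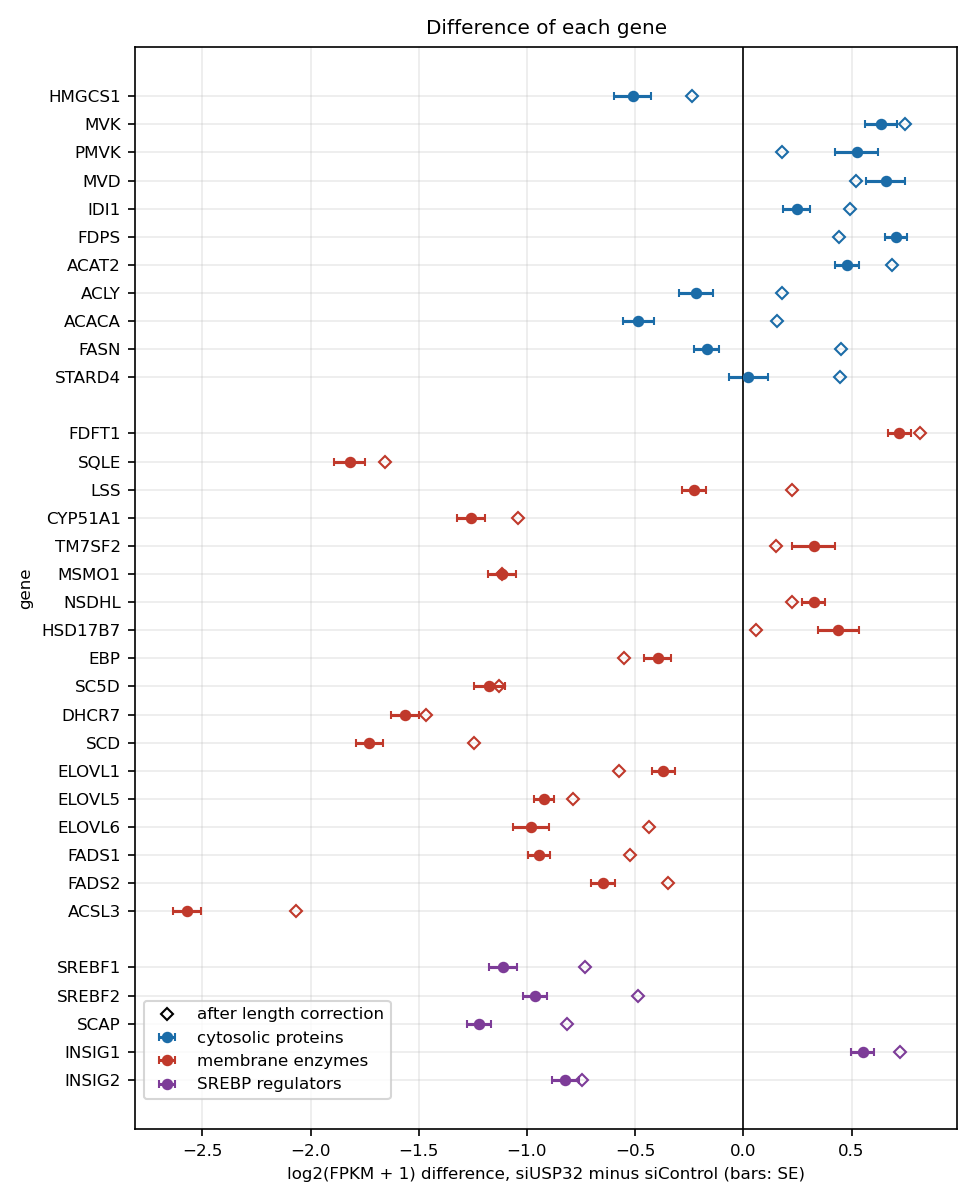
Log2(FPKM + 1) difference, siUSP32 minus siControl, of each gene by class (filled points, bars are SE) with the value after correction for transcript length (open diamonds). ACSL3, SQLE and SCD lie farthest to the left at -2.57, -1.82 and -1.73, and FDFT1 and FDPS farthest to the right at 0.72 and 0.70.

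Of the 11 membrane enzymes of the sterol pathway, 7 fell and 4 rose, beside 41.3% lower and 33.3% higher over all tested genes. With TPM 7 were called lower and 1, FDFT1, higher, beside 62.1% and 14.3% of all tested genes. FDFT1, squalene synthase, is the enzyme that commits farnesyl diphosphate to sterols and was at 64.6, 70.4 and 69.6 FPKM in siUSP32 libraries, against 41.4, 39.6 and 41.8 FPKM in siControl libraries. It was 1.67-fold higher (log2 difference 0.72 ± 0.05, limma adjusted p = 2.43e-06), and stayed higher with TPM (0.36) and with the length correction (0.81). On the log2(FPKM + 1) scale no other of the 34 genes rose more, but the ratio of mean FPKM was larger for MVK. SQLE, squalene epoxidase, which acts on its product and is a rate-limiting step, was at 10.2, 10.1 and 12.2 FPKM in siUSP32 libraries, against 40.6, 41.2 and 40.0 FPKM in siControl libraries. It was 3.75-fold lower (log2 difference -1.82 ± 0.07, limma adjusted p = 4.39e-08), so neighbouring steps of the pathway moved in opposite directions. LSS, lanosterol synthase, was at 11.3, 11.1 and 11.1 FPKM in siUSP32 libraries, against 13.5, 12.9 and 13.4 FPKM in siControl libraries, with a log2 difference of -0.23. It was 0.23 with the length correction, and it was not called after quantile normalization (-0.03) or median-ratio scaling.

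Among the later enzymes that trim and reduce the sterol ring, CYP51A1, DHCR7, SC5D and EBP fell. TM7SF2, at low FPKM, rose, but its call depended on the scaling. CYP51A1, the lanosterol demethylase, was at 9.79, 9.13 and 10.7 FPKM in siUSP32 libraries, against 24.9, 24.95 and 24.98 FPKM in siControl libraries, and was 2.53-fold lower. Its exons overlap those of a pair of other annotated genes on the same strand, so its value is uncertain. DHCR7, which reduces a late precursor to cholesterol (Entrez 1717, GRCh38 chromosome 11, bases 71428193 to 71452868, minus strand), was at 10.5, 9.62 and 11.3 FPKM in siUSP32 libraries, against 32.8, 33.7 and 31.97 FPKM in siControl libraries, and was 3.14-fold lower (log2 difference -1.56 ± 0.07, limma adjusted p = 5.83e-08). SC5D, the desaturase acting just before it, was 2.504-fold lower (log2 difference -1.17). EBP, the sterol isomerase, had the highest level of the 34 genes in siControl libraries and fell less, to 127 to 147 FPKM in siUSP32 libraries, against 176 to 181 FPKM in siControl libraries. TM7SF2, a sterol reductase, was at 3.27, 4.07 and 2.93 FPKM in siUSP32 libraries, against 2.57, 2.6 and 2.37 FPKM in siControl libraries. Its log2 difference of 0.33 was 0.05 with TPM and 0.15 with the length correction, where it was not called, and it also lost its call without siControl library 3. Its exons overlap those of VPS51 on the same strand, so the value is uncertain.

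MSMO1, NSDHL and HSD17B7 act together to remove a pair of methyl groups from the sterol ring, and they moved in opposite directions. MSMO1, the methyl oxidase, was at 19.6, 18.1 and 20.7 FPKM in siUSP32 libraries, against 40.7, 44.8 and 44.02 FPKM in siControl libraries, and was 2.22-fold lower (log2 difference -1.11 ± 0.07, limma adjusted p = 5.24e-07). NSDHL, the dehydrogenase of the same reaction, was at 36.5, 37.4 and 38.7 FPKM in siUSP32 libraries, against 31.1, 29.8 and 28.4 FPKM in siControl libraries, and was 1.26-fold higher (log2 difference 0.33 ± 0.05, limma adjusted p = 4.71e-04), though with TPM the difference was -0.04 and was not called. HSD17B7, the reductase that completes it, was at 11.2, 11.4 and 10.95 FPKM in siUSP32 libraries, against 6.68, 8.5 and 8.93 FPKM in siControl libraries, and was 1.39-fold higher (log2 difference 0.44 ± 0.10, limma adjusted p = 0.00244). Its call was lost with TPM (0.11) and with the length correction (0.06), and GENCODE 29 names 2 pseudogenes of it that can share its reads.

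The promoters of these partner genes are shown because the genes share a reaction and a promoter element but differed in direction. Each is 250 bases before to 50 bases after the start of the gene, from RefSeq on GRCh38.p14, on the plus strand, with CCAAT, the site bound by NF-Y, a common partner of SREBP, in capitals. The motif was searched on both strands, so that ATTGG marks it on the other one. The windows are chr4:165327419-165327718 for MSMO1, chrX:152830813-152831112 for NSDHL and chr1:162790452-162790751 for HSD17B7.
MSMO1: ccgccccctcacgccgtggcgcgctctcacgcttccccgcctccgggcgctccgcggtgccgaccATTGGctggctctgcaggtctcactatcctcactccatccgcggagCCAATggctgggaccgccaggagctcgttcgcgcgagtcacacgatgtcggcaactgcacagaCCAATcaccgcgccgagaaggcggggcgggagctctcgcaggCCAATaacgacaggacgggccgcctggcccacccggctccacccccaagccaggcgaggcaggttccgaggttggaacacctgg
NSDHL: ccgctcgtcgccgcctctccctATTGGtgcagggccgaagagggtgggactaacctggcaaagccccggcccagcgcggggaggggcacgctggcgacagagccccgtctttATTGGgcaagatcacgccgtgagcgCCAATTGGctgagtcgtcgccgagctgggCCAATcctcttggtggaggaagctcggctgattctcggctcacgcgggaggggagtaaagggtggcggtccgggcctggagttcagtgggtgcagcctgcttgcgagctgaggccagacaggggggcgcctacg
HSD17B7: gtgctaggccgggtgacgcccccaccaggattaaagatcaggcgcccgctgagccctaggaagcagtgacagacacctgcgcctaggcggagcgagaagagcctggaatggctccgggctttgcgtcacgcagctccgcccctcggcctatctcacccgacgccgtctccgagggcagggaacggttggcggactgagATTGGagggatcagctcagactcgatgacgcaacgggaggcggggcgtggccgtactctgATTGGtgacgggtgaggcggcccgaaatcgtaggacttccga
There were 4 matches for MSMO1, which fell, 5 for NSDHL, which rose, and 2 for HSD17B7, which rose. A pair of the NSDHL matches overlap, read on opposite strands.

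A promoter was found for 30 of the 34 genes, all but ACAT2, FASN, FDFT1 and SQLE. CCAAT was present in 20 of them (66.7%), and in 36.8% of the 9860 promoters of tested genes. By direction it was present in 7 of 9 promoters of genes that rose and in 12 of 20 of genes that fell. A strict sterol regulatory element, TCACNCCAC on either strand, was found in 1 of the 30, that of SREBF2, and in 1.04% of all promoters, and it overlapped no CCAAT match there. The E-box CACGTG was found in 5 of the 30 (16.7%) and in 10.5% of all, with no overlap with a CCAAT match. These matches describe the letters in the window and do not show binding.

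All 7 membrane enzymes of fatty acid synthesis fell, beside 41.3% of all tested genes. ACSL3, which activates fatty acids to their CoA esters at the endoplasmic reticulum and on lipid droplets (Entrez 2181, GRCh38 chromosome 2, bases 222860934 to 222944639, plus strand), was at 4.99, 4.56 and 5.35 FPKM in siUSP32 libraries, against 34.6, 33.3 and 35.4 FPKM in siControl libraries. It was 6.93-fold lower, the largest fall among the 34 genes (log2 difference -2.57 ± 0.07, limma adjusted p = 4.14e-09), and was -2.07 with the length correction. SCD, the stearoyl-CoA desaturase that makes oleate (Entrez 6319, GRCh38 chromosome 10, bases 100347124 to 100364834, plus strand), was at 29.6, 26.1 and 30.5 FPKM in siUSP32 libraries, against 96.9, 95.3 and 99.7 FPKM in siControl libraries, and was 3.39-fold lower (log2 difference -1.73 ± 0.06, limma adjusted p = 2.66e-08). Every siUSP32 library lay below every siControl library for both.

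The elongases differed in how far they fell. ELOVL6, which extends palmitate, was at 6.26, 5.22 and 6.63 FPKM in siUSP32 libraries, against 12.96, 13.2 and 12.4 FPKM in siControl libraries, and was 2.13-fold lower. ELOVL5, which extends polyunsaturated chains, was 1.91-fold lower, to 60.2 to 64.1 FPKM in siUSP32 libraries, against 117 to 122 FPKM in siControl libraries. ELOVL1, which makes very long saturated chains, was 1.295-fold lower, with a log2 difference of -0.37 ± 0.06, limma adjusted p = 2.39e-04. The desaturases of polyunsaturated fatty acids are neighbours on chromosome 11. FADS1 was at 17.4, 17.01 and 17.1 FPKM in siUSP32 libraries, against 34.3, 34.5 and 32.98 FPKM in siControl libraries, and was 1.98-fold lower, and FADS2 was 1.59-fold lower (log2 differences -0.94 and -0.65). Exons of FADS1 and FADS2 overlap on opposite strands in GENCODE 29, those of FADS2 also overlap FEN1 on the same strand, and how strand was handled is not given. All 7 were also lower with the length correction, with TPM and after quantile normalization, beside 28.5%, 62.1% and 30% of all genes.

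The regulators of the SREBP system fell, with INSIG1 as the exception. SREBF1, which encodes SREBP-1, the activator of fatty acid genes, was at 6.93, 8.0 and 7.48 FPKM in siUSP32 libraries, against 16.96, 17.6 and 17.2 FPKM in siControl libraries, and was 2.31-fold lower (log2 difference -1.11 ± 0.07, limma adjusted p = 5.27e-07). SREBF2, which encodes SREBP-2, the activator of cholesterol genes, was at 6.97, 6.88 and 6.87 FPKM in siUSP32 libraries, against 14.2, 14.3 and 14.8 FPKM in siControl libraries, and was 2.09-fold lower (log2 difference -0.96 ± 0.06, limma adjusted p = 5.14e-07). SCAP, the escort of both, was at 8.05, 8.29 and 7.75 FPKM in siUSP32 libraries, against 20.5, 19.8 and 19.7 FPKM in siControl libraries, and was 2.495-fold lower (log2 difference -1.22 ± 0.06, limma adjusted p = 1.12e-07). The libraries of each group were close to each other for these 3 genes and did not overlap between groups.

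The INSIG genes, which encode the anchors that retain SCAP, moved apart. INSIG1, itself a classical SREBP target (Entrez 3638, GRCh38 chromosome 7, bases 155297776 to 155310235, plus strand), was at 24.3, 23.1 and 23.6 FPKM in siUSP32 libraries, against 15.3, 16.5 and 15.7 FPKM in siControl libraries, and was 1.49-fold higher (log2 difference 0.55 ± 0.06, limma adjusted p = 1.82e-05). INSIG2, which depends less on SREBP, was at 8.03, 8.2 and 8.69 FPKM in siUSP32 libraries, against 14.6, 15.9 and 15.9 FPKM in siControl libraries, and was 1.86-fold lower (log2 difference -0.82 ± 0.06, limma adjusted p = 3.19e-06). The rise of INSIG1 and the falls of the other 4 kept their direction and their call in every alternative run but a minimum difference of 1, which only SREBF1 and SCAP passed. For single genes such as these an exact permutation test of 3 against 3 libraries cannot give a p below 0.1, so the calls rest on the variance that limma shares across genes.

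Other genes of these pathways, in 3 further lists, gave the setting. Of 12 genes of the prenylation branch and late sterol steps described here, 3 rose, 3 fell and 6 did not pass, with a median of -0.035, where 33.3% of all tested genes rose and 41.3% fell. These counts turned with the scaling. With TPM 1 was called higher and 9 lower, beside 14.3% and 62.1% of all tested genes. With the length correction 7 were called higher and 2 lower, beside 44.7% and 28.5%. LBR, a sterol reductase of the inner nuclear membrane, was at 4.84, 4.07 and 4.95 FPKM in siUSP32 libraries, against 20.9, 21.6 and 23.1 FPKM in siControl libraries, and was 4.73-fold lower (log2 difference -2.03 ± 0.08, limma adjusted p = 3.59e-08). Its libraries did not overlap between the groups. FNTB, a subunit of the protein farnesyltransferase, was 1.55-fold lower, and its log2 difference of -0.43 was -0.05 and not called after quantile normalization. RABGGTB and COQ2, a prenyltransferase subunit and a mitochondrial enzyme of ubiquinone synthesis, were 1.76-fold and 1.39-fold higher, and COQ2 was not called with TPM (log2 difference 0.10).

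Of 23 genes of sterol uptake, transport and SREBP processing, 16 fell, 3 rose and 4 did not pass, with a median of -0.81, beside 41.3% lower and 33.3% higher over all tested genes. With TPM 19 were called lower and 1 higher, beside 62.1% and 14.3% of all tested genes. With the length correction 16 were called lower and 7 higher, beside 28.5% and 44.7%. MBTPS2, the site-2 protease that frees SREBP from the membrane, was at 1.13, 0.98 and 1.12 FPKM in siUSP32 libraries, against 10.7, 11.02 and 10.7 FPKM in siControl libraries, and was 10.1-fold lower (log2 difference -2.51 ± 0.07, limma adjusted p = 4.36e-09). The siUSP32 values of MBTPS2 lie near the filter of 1 FPKM, so the size of its fold is uncertain. MBTPS1, the site-1 protease that makes the cut before that of MBTPS2, was 3.697-fold lower and was chosen after its values were seen. NPC1, the lysosomal cholesterol exporter, was 8.78-fold lower. NR1H2, a nuclear receptor for oxysterols, was 1.99-fold higher, and GRAMD1A, a sterol carrier at membrane contacts, was 1.21-fold higher, but it was not called with TPM (log2 difference -0.09) or after quantile normalization (0.04).

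Of 27 genes of fatty acid activation, elongation and electron supply, 21 passed the filter on low values, of which 9 rose, 11 fell and ACSL4 did not pass, beside shares over all tested genes of 33.3% higher and 41.3% lower. With TPM 4 of the 21 were called higher and 13 lower, beside 14.3% and 62.1% of all tested genes. With the length correction 7 were called higher and 11 lower, beside 44.7% and 28.5%. HACD2, the membrane dehydratase of the elongation cycle, was 4.26-fold lower, and POR, the membrane reductase that feeds electrons to squalene epoxidase and the lanosterol demethylase, was 3.11-fold lower. ME1, the cytosolic malic enzyme that supplies NADPH, was 2.16-fold higher, at 14.1, 13.8 and 15.9 FPKM in siUSP32 libraries, against 7.25, 6.31 and 6.73 FPKM in siControl libraries. MID1IP1, a soluble activator of acetyl-CoA carboxylase, was 1.82-fold higher. These 3 lists were chosen with earlier results of these data known.

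The division by class was set beside hydrophobic segments in the encoded proteins, counted as stretches of 19 residues whose Kyte-Doolittle hydropathy averaged 1.6 or more. Such a window was present in 17 of 18 membrane enzymes, all 5 regulators and 4 of 11 cytosolic proteins. LSS, which sits on the membrane without spanning it, had none. Over all tested genes the median log2 difference was 0.06 for the 8057 without a segment, -0.23 for 2117 with 1, -0.52 for 1197 with 2 to 4 and -0.94 for 588 with 5 or more. Among the 34 genes it was 0.13 for 8 without a segment, 0.32 for 7 with 1 and -0.95 for 18 with 2 to 4, and SCAP, with 9, was at -1.22. The share of genes that fell was 69.1% over all genes with 2 to 4 segments, and 15 of the 18 lipid genes there fell.

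**Figure D4:**
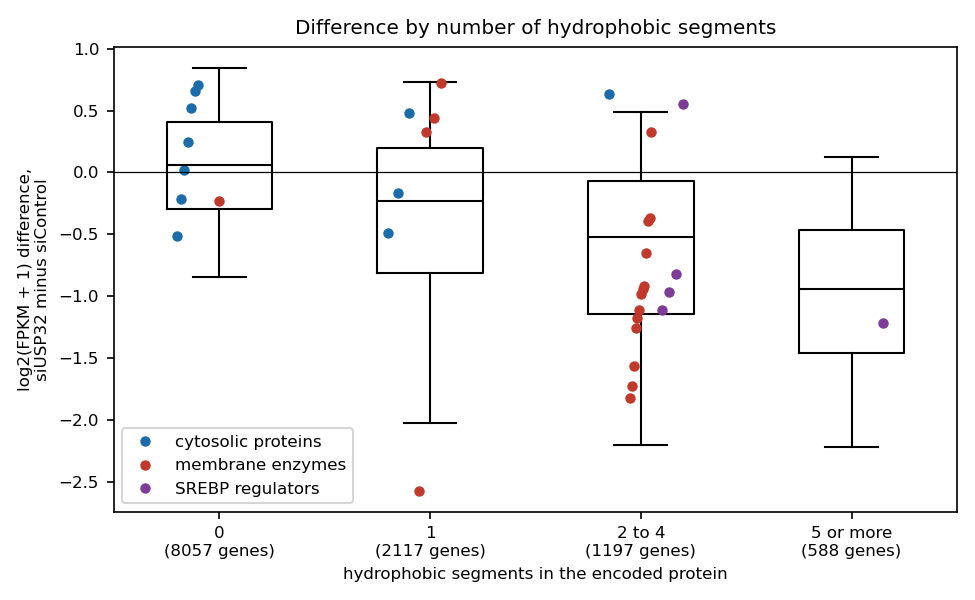
Log2(FPKM + 1) difference, siUSP32 minus siControl, by the number of hydrophobic segments, for all tested genes (boxes show the quartiles and median, whiskers the 5th to 95th percentile) and for the lipid genes by class (points). With 2 to 4 segments the lipid genes had a median of -0.95, against -0.52 over all genes.

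The 4 membrane enzymes that rose were then compared with the others in where the first segment begins, a feature chosen after the values were seen. In FDFT1, NSDHL and HSD17B7 it begins at residue 285 of 417, 294 of 373 and 232 of 341, past the midpoint of the protein, and all 3 rose. In the other 14 membrane enzymes with a segment it begins before the midpoint, and of these 13 fell and TM7SF2 rose. FDFT1, NSDHL and HSD17B7 each have 1 segment, so position and number of segments are largely tied in these enzymes. ACSL3 is the other membrane enzyme with 1 segment, which begins at residue 18 of 720, and it fell (log2 difference -2.57). Over all genes the share that rose was 29.4% of 1003 whose first segment begins past the midpoint and 14.9% of 2899 whose first segment begins before it. The shares that fell were 47.8% and 67.6%. Among the regulators SREBF1, SREBF2, SCAP and INSIG2 fell, and their first segment also begins before the midpoint. INSIG1, whose first segment begins at residue 83 of 277, rose with an early segment. Among the cytosolic proteins MVK and ACAT2 rose with a first window at residue 101 of 396 and 98 of 397. FASN fell with one at 549 of 2511, and ACACA fell with one at 1814 of 2346.

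Transcript length moved with the differences, and its part in the division by class was not tested further than by the length correction above. The median transcript length was 2746.5 bases for membrane enzymes, 4178 bases for regulators and 3370 bases for cytosolic proteins. The genes were divided by length into 3 groups. With transcripts of 2296 to 4106 bases, the 7 membrane enzymes had a median of -1.17 and the 4 cytosolic proteins one of 0.36, beside -0.07 over all 3989 genes. Among the longest transcripts, from 4107 bases, the 5 membrane enzymes had a median of -0.98 and the 4 cytosolic proteins one of -0.19, beside -0.39 over all 3985 genes. Among the shortest, the 6 membrane enzymes had a median of -0.02 and the 3 cytosolic proteins one of 0.66, beside 0.33 over all 3988 genes. In each group the median of the membrane enzymes lay below that of all genes and that of the cytosolic proteins above it, but some single genes did not follow, such as FDFT1 and LSS above it and HMGCS1 and ACACA below it.

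In GENCODE 29, exons of 16 of the 34 genes overlap an exon of another gene, among them MVK with MMAB and ACAT2 with TCP1, on opposite strands. Named pseudogenes exist for 5, namely FDPS, CYP51A1, HSD17B7, SCD and FADS2. The part that shared or antisense reads play in their values was not tested.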

How the data were processed

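RNA of MDA-MB-231 cells was harvested in Trizol and sequenced from MGISEQ-2000 libraries, per the labels' protocols, with 3 siUSP32 and 3 siControl libraries grouped by their titles. The authors deposited FPKM values, per the file headers, in 1 table per library with 17646 genes. The submitters' processing notes name the build GRCh38.p13. Aligner, counter, annotation, filters and strand handling are not given. Read totals are not in the tables, so the depth is unknown and no counting interval was computed. No pair of libraries shared more than 0.783% of identical values.

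Tests used log2(FPKM + 1) of the 12003 genes averaging at least 1 FPKM, with limma 3.58.1 in R 4.3.3 (mean-variance trend, no covariate, 2-sided, Benjamini-Hochberg over all genes, threshold 0.05). Folds are ratios of mean FPKM. Transcript lengths, exons and coding sequences came from GENCODE 29 on GRCh38, matched by Entrez identifier, with 1 principal transcript per gene (that of longest coding sequence), for 11962 tested genes, and need not be the lengths the authors used. The length correction was a loess curve (span 0.5) per library. Promoters are from RefSeq on GRCh38.p14, and only the sequences were used.

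The 34 genes, their classes, the further lists and the alternatives were chosen with earlier results of these data known. The genes named are all 34, USP32 and, from each further list, the 2 called genes with the smallest adjusted p in each direction, besides those said to be chosen after their values were seen. Some genes of the further lists are not reported here, and the counts of their list and the choice of named genes are without them. Replicate numbers are shared between the groups, but the deviations of libraries with the same number cannot decide whether they were paired. No block was used in the fit reported.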

Additional observations from a re-analysis of the deposited data

How the results depend on the processing

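Alternatives to the reported fit were a pseudocount of 0.1, no filter, a minimum of 5 FPKM, TPM, median-ratio scaling, quantile normalization, the length correction, limma without the trend, a replicate block, a minimum difference of 1 and leaving out each library. Over all 12003 genes tested 4001 rose and 4956 fell, against 1716 and 7453 with TPM. At a minimum of 5 FPKM, where only 8645 genes were tested, 3577 rose and 3068 fell. With a minimum difference of 1, 234 of the 12003 were higher and 1297 lower. With that minimum 0 cytosolic proteins rose and 0 fell, 0 membrane enzymes rose and 7 fell, and 0 regulators rose and 2 fell. With TPM 3 cytosolic proteins and 1 membrane enzyme were called higher. The count of cytosolic proteins that fell, 4, was 2 with median-ratio scaling and after quantile normalization, 1 with the length correction, 2 without any 1 siControl library, and 2 to 4 when each library was left out.

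The median log2 difference of the cytosolic proteins, 0.25, was -0.12 with TPM, 0.38 with median-ratio scaling, 0.16 after quantile normalization, 0.45 with the length correction and 0.36 at a minimum of 5 FPKM. That of the membrane enzymes, -0.93, was -1.301 with TPM, -0.80 with median-ratio scaling, -0.81 after quantile normalization, -0.56 with the length correction and -0.94 to -0.89 when each library was left out. That of the regulators, -0.96, was -1.32 with TPM, -0.84 with median-ratio scaling, -0.73 after quantile normalization, -0.73 with the length correction and -1.05 with a pseudocount of 0.1. Single genes changed sign with TPM (IDI1 -0.12, STARD4 -0.33, NSDHL -0.036), after quantile normalization (FASN 0.09) and with the length correction (ACLY 0.18, ACACA 0.15, FASN 0.45, LSS 0.23). STARD4 also changed sign without siControl library 1 (-0.022) and without siUSP32 library 3 (-0.061). The cause was not tested.

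Libraries with the same replicate number correlated at -0.08, 0.07 and 0.12 in their deviations from the group means. The highest correlation was that of the libraries numbered 3, while siUSP32 library 1 correlated best with siControl library 3. With 3 libraries in each group these values cannot decide whether libraries were paired. With the replicate block 4016 genes rose and 4979 fell, and among the 34 genes FASN lost its call, leaving 3 cytosolic proteins lower. With the depth unknown, differences of genes with low FPKM, such as TM7SF2 and ACACA, are the least certain.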
